A study of Cavia porcellus with 34 samples.

Results

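The 10 genes described here belong to the oligodendrocyte precursor and its lineage, and were measured in the paraventricular nucleus (PVN) of juvenile guinea pigs. They were taken by name from the tables of gene values, by matching each gene symbol in capitals to PDGFRA, CSPG4, GPR17, OLIG1, OLIG2, SOX10, NKX2-2, BCAS1, ENPP6 or MYRF. Of the 10 members, 8 were found among 12114 genes in F1, 9 among 12207 genes in F2 and 9 among 12066 genes in F3. PDGFRA, the receptor that defines the precursor, was not analysed here in any generation, and SOX10 was not analysed here in F1. The precursor class was therefore represented by CSPG4 alone.

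RNA was sequenced from micro-punches of the anteromedial hypothalamus that contained the PVN and may have included adjacent regions. The F0 mothers received either saline (Veh, labelled Control) or the synthetic glucocorticoid betamethasone (sGC, labelled Beta) while pregnant with F1. The animals were Dunkin-Hartley females of postnatal day 40 from the paternal line, so F1 were exposed in utero, while F2 and F3 descended through males of the exposed line without further treatment. Each treatment was represented by 5 animals in F1, by 5 in F2 and by 6 in F3, which made 32 of the 34 samples in the series. In F3, 2 of the 6 sGC animals came from a second sequencing batch that held no Veh animal of its own in the data used, and the 2 re-sequenced Veh libraries were not used here. The labels did not give the litters of the animals, so p-values measure the spread between these samples.

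Oligodendrocyte precursors divide in the juvenile brain and give rise to the cells that make myelin. PDGFRA and CSPG4 mark the dividing precursor, while GPR17, BCAS1, ENPP6 and MYRF come on in cells that have left division and are committed to form myelin. OLIG1, OLIG2, SOX10 and NKX2-2 are transcription factors present over much or all of the lineage.

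All values are normalised read counts as deposited, adjusted by the authors within each generation, so levels are compared within a generation and not between them. Summed values per sample were 15573233 to 21935501 in F1, 15645962 to 19435104 in F2 and 18692048 to 18977539 in F3. Differences are sGC minus Veh on the log2(value + 1) scale with their standard error (SE), tested by limma over every gene whose mean reached 10. P-values were adjusted over those genes (Benjamini-Hochberg), and a gene was called at an adjusted p under 0.05. This scale understates the change of low genes. The median difference over all genes was 0.07 in F1, -0.08 in F2 and 0.00 in F3. In bulk tissue, fewer cells of a type and less RNA per cell cannot be told apart.

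There was no member with a significant difference between sGC and Veh within any generation after adjustment (limma). In F1, 0 of 8 members were called, while 0.657% of all 11874 genes were (72 higher and 6 lower; 1006 higher and 1052 lower with size factors). The values of 4 members were nevertheless higher in sGC at an unadjusted p under 0.05 (CSPG4, BCAS1, ENPP6 and MYRF), against 12.1% of all genes in that direction. In F2, 0 of 9 members were called, as were 0.0% of 11965 genes, yet 7 of the 9 were lower in sGC at an unadjusted p under 0.05, against 9.17% of all genes. In F3, 0 of 9 members were called, against 0.0506% of 11866 genes, and only SOX10 had an unadjusted p under 0.05, being higher, which 6.19% of all genes also were.

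**Figure D1:**
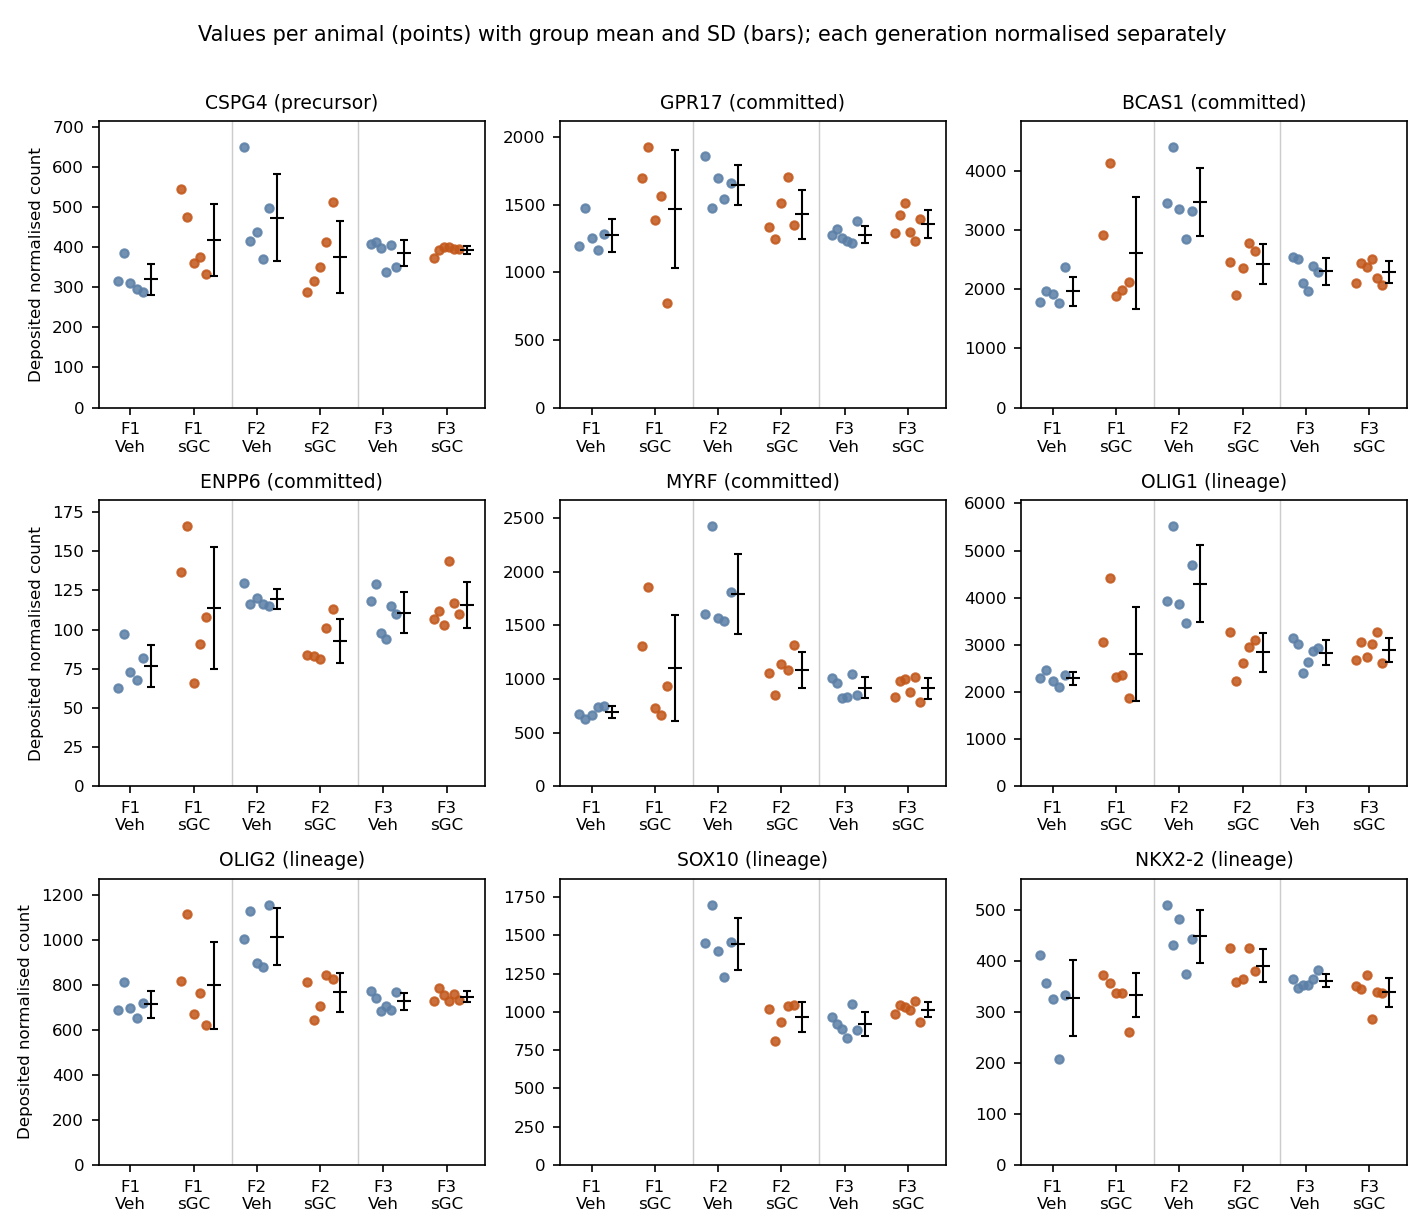
Deposited normalised counts of the 9 members analysed, 1 point per animal (blue, Veh; orange, sGC), with the group mean and SD as black bars; the vertical axes start at 0. In F2 the orange points of BCAS1, ENPP6, MYRF, OLIG1, OLIG2 and SOX10 all lie below the blue ones, and in F1 the 2 highest orange points of MYRF, at 1305 and 1859, are SGM4 and SGM8.

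CSPG4, which encodes the NG2 proteoglycan on the surface of the precursor, had normalised counts of 316, 385, 311, 296 and 289 in the F1 Veh animals and 544, 475, 359, 376 and 332 in the F1 sGC animals. All 5 sGC animals were above the Veh mean, but the groups overlapped as deposited, because only SGM4 and SGM8 exceeded the highest Veh animal. With median-of-ratios size factors, which rescale each sample by its typical gene, they no longer overlapped, the nearest animals being at 343.0 in Veh and 343.4 in sGC. The difference in F1 was 0.37 (SE 0.15, limma unadjusted p = 0.0224, adjusted p = 0.275). In F2 the order was the opposite, with 648, 414, 437, 371 and 496 in Veh and 288, 315, 350, 413 and 511 in sGC. The F2 groups overlapped, and 1 sGC animal (SGM30) lay above the Veh mean. The F2 difference was -0.34 (SE 0.17, limma adjusted p = 0.471). F3 values were narrow and overlapped throughout, at 337 to 413 with a median of 401 in Veh and 373 to 401 with a median of 394 in sGC. The F3 difference was 0.03, with a 95% interval from -0.08 to 0.14.

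CSPG4 is also made by pericytes of the vessel wall, so the mural cell markers are given beside it. In F1, all 6 mural markers tested had higher values in sGC (median difference 0.24, 2 at an unadjusted p under 0.05), and the pericyte gene RGS5 ranged from 1829 to 2411 in Veh and from 1991 to 10487 in sGC. In F2, all 6 mural markers tested were lower (median -0.24, 3 at an unadjusted p under 0.05). The summed mural level was 5555 to 7635 in F1 Veh and 6566 to 16650 in F1 sGC, and 4818 to 10294 in F2 Veh and 4559 to 6049 in F2 sGC. No mural gene in the tables was at 0 in any sample. The mural markers thus differed in the same direction as CSPG4 in both generations, and their part in its values was not tested. In F3, 7 of 9 mural markers were higher (median 0.04), with the smooth muscle genes ACTA2 at 0.59 and MYH11 at 0.87, while CSPG4 stayed within its spread.

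GPR17, a receptor of the transient stage between precursor and myelinating cell, was 1192, 1479, 1251, 1163 and 1284 in F1 Veh and 1701, 1924, 1391, 1568 and 771 in F1 sGC. The F1 sGC group held both the highest value and the lowest, so its spread exceeded the difference (0.15, SE 0.17, limma adjusted p = 0.786). In F2 the values were 1864, 1478, 1697, 1542 and 1660 in Veh and 1334, 1245, 1516, 1702 and 1352 in sGC. There, 3 sGC animals lay below every Veh animal and the groups overlapped (difference -0.21, SE 0.09, limma adjusted p = 0.417). In F3, GPR17 ran from 1218 to 1382 (median 1265) in Veh and from 1233 to 1513 (median 1349.5) in sGC, with a difference of 0.09 and a 95% interval from -0.02 to 0.19. GPR17 lies within the LIMS2 locus and the libraries kept no strand, so reads of the genes could not be told apart. LIMS2 gave 0.10 in F1, -0.27 in F2 and 0.09 in F3.

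BCAS1, a protein of early myelinating cells, was 1788, 1969, 1923, 1766 and 2368 in F1 Veh and 2911, 4136, 1883, 1994 and 2116 in F1 sGC. The groups overlapped, since 3 sGC animals fell among the Veh animals and SGM4 and SGM8 stood above them. The F1 difference was 0.35 (SE 0.17, limma unadjusted p = 0.0479, adjusted p = 0.364). In F2, BCAS1 was 3464, 4396, 3353, 2844 and 3315 in Veh and 2461, 1903, 2366, 2778 and 2647 in sGC. Every sGC animal was below every Veh animal, a difference of -0.51 (SE 0.12, limma adjusted p = 0.101). In F3 the ranges overlapped, from 1962 to 2551 (median 2339) in Veh and from 2080 to 2519 (median 2284) in sGC, and the 95% interval of the difference ran from -0.15 to 0.14.

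ENPP6, a choline-specific phosphodiesterase that marks newly forming oligodendrocytes, was the lowest of the members analysed. It was 63, 97, 73, 68 and 82 in F1 Veh and 137, 166, 66, 91 and 108 in F1 sGC, so the groups overlapped while 3 sGC animals exceeded every Veh animal (difference 0.51, SE 0.22, limma adjusted p = 0.307). In F2 it was 130, 116, 120, 116 and 115 in Veh and 84, 83, 81, 101 and 113 in sGC. Those groups did not overlap as deposited, with the nearest animals at 115 and 113, but overlapped with size factors, at 107.3 in the lowest Veh animal and 109.0 in the highest sGC animal (difference -0.38, SE 0.13, limma adjusted p = 0.283). In F3, ENPP6 ran from 94 to 129 (median 112.5) in Veh and from 103 to 144 (median 111) in sGC, with a 95% interval from -0.14 to 0.26.

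MYRF, the transcription factor that switches on myelin genes, had the largest difference of the members in both F1 and F2. It was 670, 626, 667, 740 and 752 in F1 Veh and 1305, 1859, 728, 668 and 939 in F1 sGC. There, 3 sGC animals exceeded every Veh animal and the other two lay among them. The F1 difference was 0.57 (SE 0.20, limma unadjusted p = 0.00859, adjusted p = 0.181), equal to 1.48-fold. In F2, MYRF was 1605, 2425, 1567, 1545 and 1811 in Veh and 1055, 850, 1138, 1080 and 1315 in sGC, with no overlap. The F2 difference was -0.71 (SE 0.13, limma unadjusted p = 0.000137, adjusted p = 0.0622), equal to 0.611-fold. In F3 the values ran from 822 to 1045 (median 903) in Veh and from 783 to 1017 (median 930) in sGC, and the difference of -0.01 had a 95% interval from -0.17 to 0.16.

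OLIG1, a basic helix-loop-helix factor of the lineage, was 2292, 2462, 2235, 2096 and 2364 in F1 Veh and 3063, 4422, 2310, 2355 and 1863 in F1 sGC. SGM20 was below and SGM4 and SGM8 were above all Veh animals, so the groups overlapped (difference 0.23, SE 0.16, limma adjusted p = 0.605). In F2, OLIG1 was 3933, 5518, 3860, 3465 and 4687 in Veh and 3282, 2236, 2622, 2962 and 3106 in sGC. The F2 groups did not overlap (difference -0.59, SE 0.13, limma adjusted p = 0.0795). In F3 the range was 2411 to 3155 (median 2904.5) in Veh and 2621 to 3277 (median 2876) in sGC, with a 95% interval from -0.11 to 0.18.

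OLIG2, which specifies the lineage and is kept into the mature cell, was 686, 813, 699, 654 and 718 in F1 Veh and 818, 1116, 672, 763 and 620 in F1 sGC. These groups overlapped, with sGC animals on both sides of the Veh range (difference 0.13, SE 0.14, limma adjusted p = 0.758). In F2, OLIG2 was 1005, 1126, 898, 879 and 1155 in Veh and 814, 645, 704, 842 and 827 in sGC. All sGC animals were below all Veh animals (difference -0.40, SE 0.10, limma adjusted p = 0.154). In F3 it ran from 685 to 773 (median 722.5) in Veh and from 726 to 784 (median 744) in sGC, with a 95% interval from -0.04 to 0.12.

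SOX10, a factor required for terminal differentiation, had the lowest p of the members in F2. Its F2 values were 1451, 1699, 1400, 1225 and 1455 in Veh and 1020, 812, 932, 1039 and 1042 in sGC. The groups did not overlap and the gap between them, from 1042 to 1225, was wider than that of ENPP6. The difference was -0.58 (SE 0.10, limma unadjusted p = 4.32e-05, adjusted p = 0.055), equal to 0.671-fold, which fell just short of the threshold. In F3, SOX10 ran from 831 to 1054 (median 904) in Veh and from 933 to 1071 (median 1020) in sGC, with all 6 sGC animals above the Veh mean. The groups overlapped, and the F3 difference was 0.14 (SE 0.05, limma unadjusted p = 0.02, adjusted p = 0.283). In the first F3 batch alone it was 0.14 (limma adjusted p = 0.447).

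NKX2-2, a homeodomain factor of the differentiating precursor, differed least in F1 and F2. It was 413, 358, 326, 209 and 333 in F1 Veh and 374, 358, 338, 337 and 262 in F1 sGC, where the Veh animals spanned the whole sGC range. The F1 difference of 0.05 became -0.01 when samples were rescaled by median-of-ratios size factors. In F2 it was 511, 433, 484, 375 and 444 in Veh and 427, 359, 365, 427 and 381 in sGC. All 5 F2 sGC animals were below the Veh mean while the groups overlapped (difference -0.19, SE 0.10, limma adjusted p = 0.478). In F3 it ran from 348 to 383 (median 360) in Veh and from 286 to 374 (median 342.5) in sGC, with a 95% interval from -0.22 to 0.02.

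**Figure D2:**
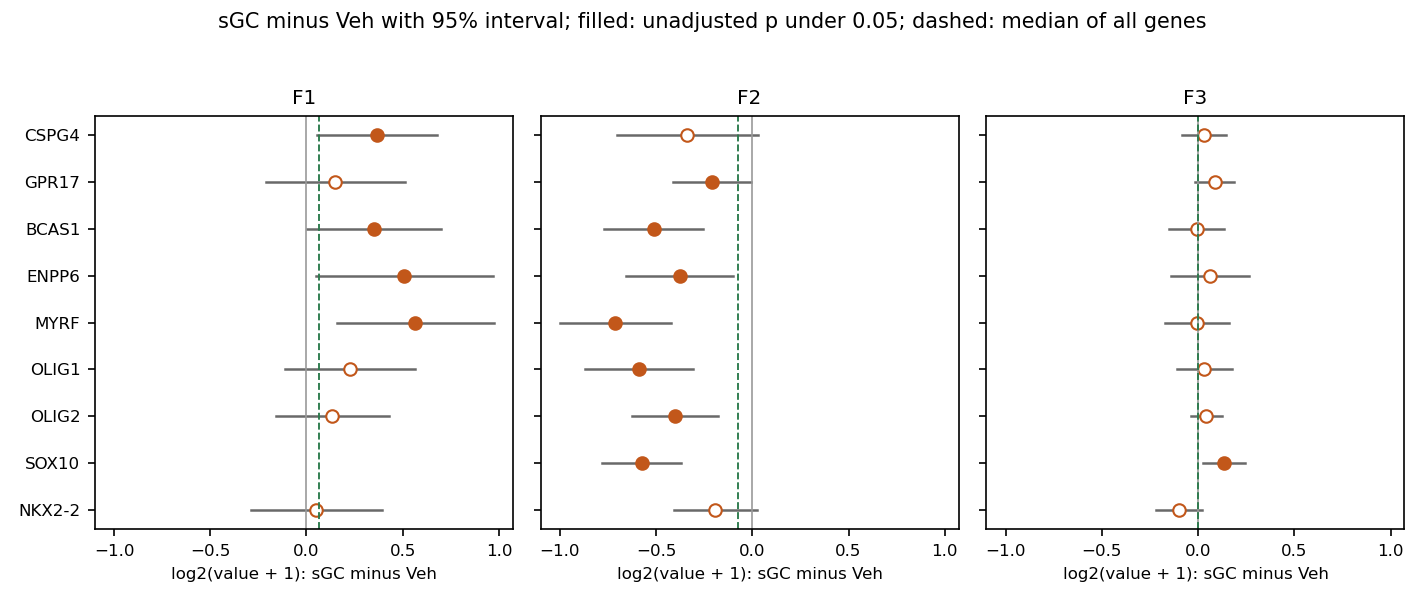
Difference of sGC minus Veh on the log2(value + 1) scale for each member in F1, F2 and F3, with its 95% interval; filled points have an unadjusted p under 0.05 and the dashed line is the median of all genes. The points lie between 0.05 and 0.57 in F1, between -0.71 and -0.19 in F2 and between -0.10 and 0.14 in F3.

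The number of members that stood apart depended on the animals and the scaling in F1. With size factors, 1 of 8 members (CSPG4) was higher at an unadjusted p under 0.05, against 16.0% of all genes. When SGM4 and SGM8 were both left out, an alternative chosen after seeing the data, 0 of 8 members were higher at that p, against 6.49% of genes, and the MYRF difference was 0.16. These animals held the highest sGC values of all 8 members. Leaving them out could therefore only lower the differences, and it left fewer sGC animals. As deposited, no member had groups that did not overlap in F1, against 1.79% of genes that were higher without overlap. With size factors, a count added after seeing the data, the groups of 1 of 8 members, CSPG4, did not overlap, against 7.07% of genes. With single F1 animals left out, the difference ran from 0.35 to 0.72 for MYRF, from 0.17 to 0.45 for BCAS1, from 0.36 to 0.68 for ENPP6 and from 0.05 to 0.36 for OLIG1, each lowest without SGM8, and from 0.27 to 0.44 for CSPG4, lowest without SGM4.

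In F2, groups did not overlap for 6 of 9 members as deposited, lower in sGC (BCAS1, ENPP6, MYRF, OLIG1, OLIG2 and SOX10), against 2.31% of genes. With size factors they did not overlap for 5 of 9, without ENPP6, against 1.91% of genes. With size factors, 6 of 9 members were lower at an unadjusted p under 0.05, against 6.01% of genes. Leaving out a single F2 animal brought members past the threshold only for SGM22, SGM28 and SGM30, and called 0 of 9 members for any other animal. MYRF and SOX10 were called without Veh animal SGM22 (0.719% of genes) or sGC animal SGM30 (0.192% of genes), and BCAS1, MYRF, OLIG1 and SOX10 without Veh animal SGM28 (0.953% of genes). SOX10 was the member called after quantile normalisation (limma adjusted p = 0.0366), with 0.351% of genes. Other settings moved it away from the threshold, with a limma adjusted p of 0.0598 with size factors. Directions taken as removed by the authors' processing, described below, were also fitted as covariates. The limma adjusted p was then 0.124 for SOX10 and 0.125 for MYRF, and 0.149 and 0.224 with size factors as well.

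By class, the 4 committed members had a median difference of 0.43 in F1 and -0.44 in F2. The lineage-wide members had 0.13 over 3 genes in F1 and -0.49 over 4 genes in F2, and CSPG4 had 0.37 and -0.34. In F3 the class medians were 0.03, 0.04 and 0.03. Per animal, after size factors, the mean of the committed members relative to Veh was 0.60 in SGM4 and 0.93 in SGM8, and from -0.10 to 0.20 in the other F1 sGC animals. Those 3 lay within the Veh range of -0.23 to 0.34. In F2 the committed mean was -0.50 to -0.29 in sGC and -0.09 to 0.28 in Veh, and the lineage-wide mean was -0.45 to -0.30 in sGC and -0.17 to 0.31 in Veh. Both class means were thus separated in every F2 animal. The myelin mean was separated too, at -0.93 to -0.40 in sGC and -0.24 to 0.46 in Veh. CSPG4, a single gene and not a mean, overlapped at -0.68 to 0.12 in sGC and -0.26 to 0.41 in Veh. GPR17 and NKX2-2, taken singly from the separated classes, overlapped in F2 as well. The mural mean per animal overlapped likewise in F2, at -0.40 to 0.00 in sGC and -0.34 to 0.42 in Veh. In F1 it was 0.69 in SGM4 and 0.37 in SGM8, where CSPG4 was 0.68 and 0.45. The same animals were also the highest for the endothelial list, at 0.95 in SGM4 and 0.58 in SGM8. CSPG4 is not made by precursors alone, as given above, and the share of pericytes in it was not tested. Whether the classes differed from each other was not tested.

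**Figure D3:**
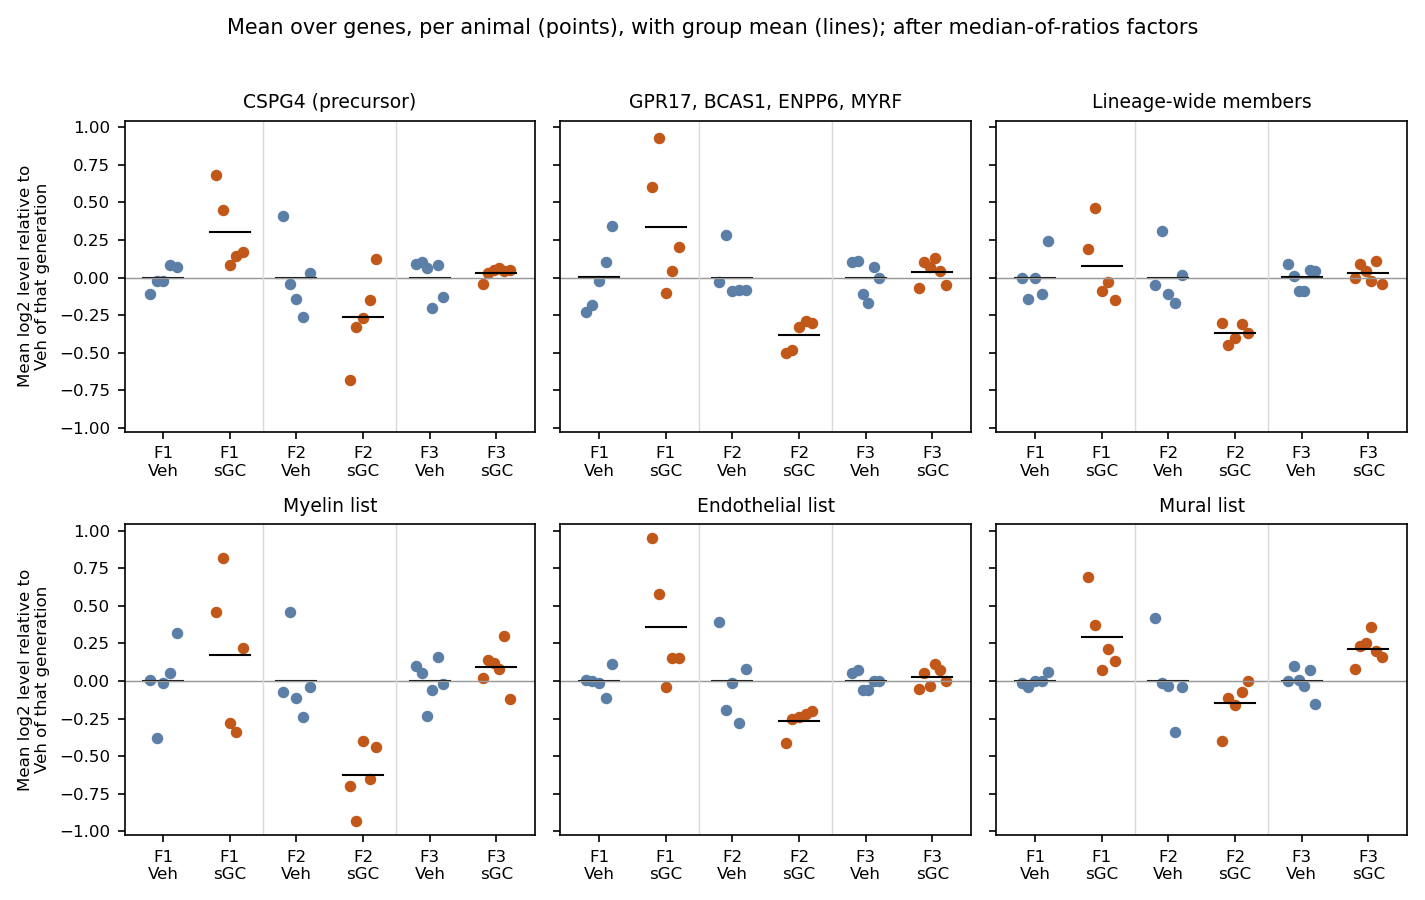
Mean log2 level per animal relative to the Veh mean of its generation, after size factors, for CSPG4, the committed members, the lineage-wide members and the myelin, endothelial and mural marker lists; black lines are group means. In F2 the committed members lie at -0.50 to -0.29 in sGC, below all Veh animals, and in F1 the sGC animals SGM4 and SGM8 lie highest, at 0.60 and 0.93.

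Whether the sGC difference itself changed between generations was tested directly, and the answer depended on how the spread was estimated. In a limma fit of all 6 groups, 6 of 8 members had a larger sGC minus Veh difference in F1 than in F2 (CSPG4, BCAS1, ENPP6, MYRF, OLIG1 and OLIG2), against 7.64% of 11429 genes. MYRF gave 1.28 (SE 0.24, limma adjusted p = 0.00172) and CSPG4 gave 0.70 (SE 0.19, limma adjusted p = 0.0226). That fit shares one spread over all groups, and member values varied less in F3 sGC (coefficient of variation 2.55% to 12.8%) than in F1 sGC (12.9% to 44.8%). On simulated data it called too many unchanged genes for this contrast. With only F1 and F2 joined, a fit added after seeing the data, MYRF alone of the 8 members was called (limma adjusted p = 0.0286), against 1.37% of genes. An exact permutation test of the same differences as deposited, which shares no spread and was also added afterwards, called 0 of 8 members, against 0.207% of genes. The permutation test is exact for no sGC effect in either generation, not for equal effects, so it cannot by itself settle whether the effects differed. For MYRF it gave an unadjusted exact p of 0.000346 and an adjusted p of 0.0665 (two-sided, 63504 permutations), and 6 of the 8 members were higher at an unadjusted exact p under 0.05, against 13.9% of genes. GPR17 and NKX2-2 were called in none of these tests, with differences of 0.36 and 0.24. Without the F1 sGC animal SGM20, which held the lowest GPR17 value of F1 (771), the fit of all groups called GPR17 (limma adjusted p = 0.00311). That setting called 7 of 8 members and 1735 of 11429 genes.

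The comparisons with F3 were likewise divided. For F1 minus F3, 0 of 8 members were called, against 3.13% of genes (limma), with 2 higher at an unadjusted p under 0.05, against 14.8% of genes. For F2 minus F3, the fit of all groups called 0 of 8 members, against 0.00875% of genes, with 4 lower at an unadjusted p under 0.05, against 6.7% of genes. With only F2 and F3 joined, 4 of 9 members had a lower difference in F2 (MYRF -0.71, OLIG1 -0.62, OLIG2 -0.44 and SOX10 -0.71), against 1.52% of genes. F3 varied less than F2, so a shared spread can be too small for F2, and that fit too exceeded its error rate on simulated data. With size factors, the fit of F2 and F3 called OLIG2 and SOX10, with 201 of 11638 genes. MYRF (limma adjusted p = 0.0537) and OLIG1 (limma adjusted p = 0.0562) were then not called. The exact permutation test called 0 of 9 members for F2 minus F3, against 0.0859% of genes, and its lowest adjusted p was 0.0694 for SOX10 (unadjusted exact p = 0.000172, 232848 permutations). The limit of that test given above holds here too.

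Other genes of the precursor and of differentiation were counted in the same fits. For these and the lists that follow, the shares of all genes at an unadjusted p under 0.05 serve as background. They were 12.1% higher in F1, 9.17% lower in F2 and 6.19% higher in F3. Of 14 further precursor genes tested in F2, 1 was lower at an unadjusted p under 0.05 (MATN4, -0.41) and 0 were called, and the list median of -0.10 was close to the -0.08 of all genes. In F1, 5 of 15 were higher at that p, among them the extracellular matrix genes TNR (0.47) and VCAN (0.34), and the median was 0.18. In F3, 1 was higher and 1 lower of 15 at that p. Among the genes of differentiation, in F2, 8 of 16 were lower at an unadjusted p under 0.05 with a median of -0.31, including the deacetylase SIRT2 (-0.48), the homeodomain factor NKX6-2 (-0.47) and the receptor GPR37 (-0.57). In F1, 5 of 16 were higher and 1 was lower at that p, TCF7L2 at -1.41, with a median of 0.14, and in F3, 2 of 16 were higher at that p. As deposited, none of these genes was called in any generation (limma). With size factors, 4 of the precursor genes were called higher in F1, among them TNR and VCAN, and 2 of the differentiation genes were called higher and 1 lower. Of all 11874 genes, 1006 were called higher and 1052 lower in that setting.

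Genes of the signals that act on precursors were mixed. In F2, 4 of 21 were lower at an unadjusted p under 0.05, namely the growth factor receptors FGFR2 (-0.36) and ERBB3 (-0.53), the Notch ligand JAG1 (-0.31) and PDGFA (-0.26), the ligand of PDGFRA. The list median was -0.07, near that of all genes. PDGFA was 602 ± 38.1 (SD, n = 5) in F2 Veh and 502 ± 34.5 (SD, n = 5) in F2 sGC. In F1, 6 of 20 were higher and 1 was lower at that p, with NOTCH1 at 0.42 and JAG1 at 0.49, and the median was 0.20. In F3, 2 of 22 were higher at that p, and as deposited 0 of these genes were called in any generation. With size factors, 3 were called higher in F1, among them NOTCH1 and JAG1, and 1 lower, against 1006 higher and 1052 lower of 11874 genes.

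Myelin genes, made by the mature cell, were counted in the same way. In F2, of 17 tested, 15 were lower at an unadjusted p under 0.05, with a median of -0.75 (FA2H -0.84, UGT8 -0.75), and 0 were called, the lowest limma adjusted p being 0.055. The differences ran from -0.95 to 0.06, a range that holds those of all 9 members. MBP was 55380 ± 14650 (SD, n = 5) in F2 Veh and 29850 ± 5935 (SD, n = 5) in F2 sGC, ranges that did not overlap at 40819 to 80064 and 20421 to 36635. In F1, 14 of 16 were higher in value, 1 at an unadjusted p under 0.05 (MBP, 0.48), with a median of 0.23. With size factors 1 was called lower in F1, against 1052 of 11874 genes. In F3, 2 of 15 were higher at that p. The myelin mean per animal in F1 was highest in SGM8 (0.82) and SGM4 (0.46), the animals that were also highest for the committed members.

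**Figure D4:**
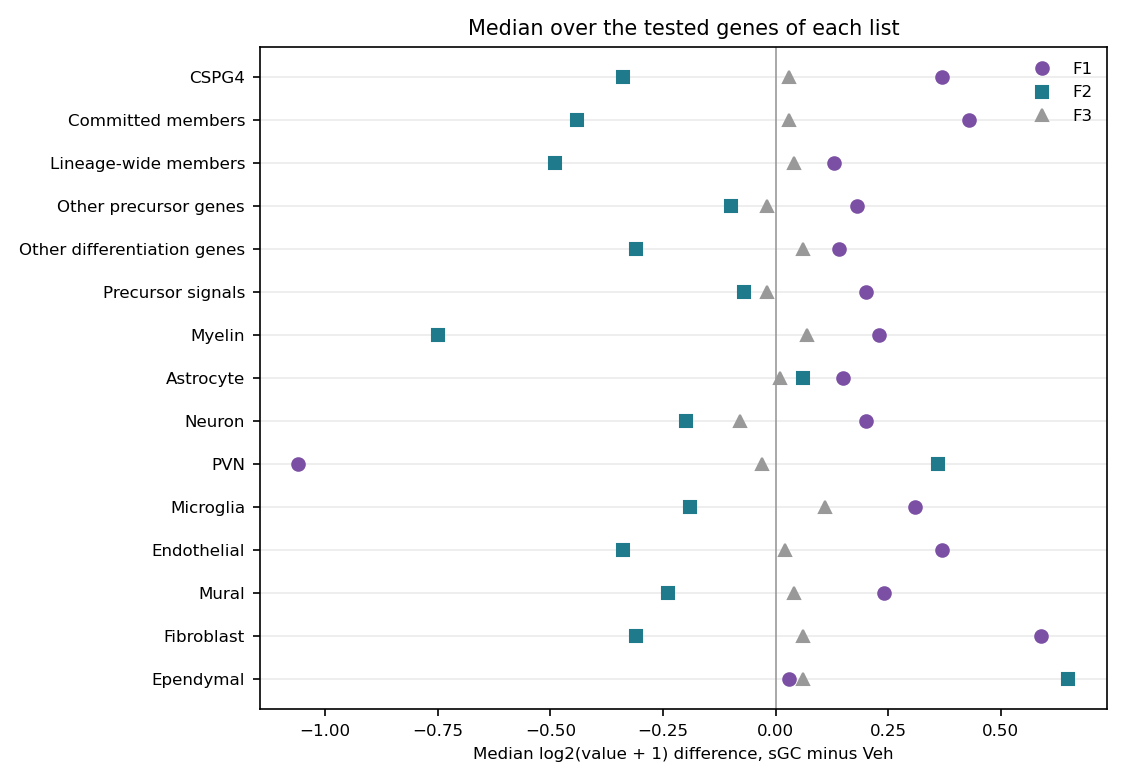
Median difference of sGC minus Veh on the log2(value + 1) scale over the tested genes of each list in F1 (circles), F2 (squares) and F3 (triangles). All lists but the astrocyte, PVN and ependymal ones lie to the right of 0 in F1 and to the left in F2, the members among them, with the myelin list the lowest of F2 at -0.75, while the PVN list lies at -1.06 in F1 and 0.36 in F2.

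Markers of other cell types and of the PVN moved in the same comparisons. In F1, 8 of 8 endothelial genes were higher in value, 6 at an unadjusted p under 0.05 (median 0.37), and the summed level was 8234 to 11954 in Veh and 9883 to 17627 in sGC. SGM4 and SGM8 were again the highest, at 0.95 and 0.58 per animal after size factors. In F2, 8 of 8 were lower, 5 at that p (median -0.34), with sums of 9660 to 14731 in Veh and 8481 to 10576 in sGC. PVN genes went the other way. At an unadjusted p under 0.05, 5 of 6 were lower in F1 (median -1.06, oxytocin gene OXT -1.54), against 173 of 11874 genes. At that p, 4 of 6 were higher in F2 (median 0.36, OXT 0.65), against 298 of 11965 genes. In F3 none of the 6 had such a p, and with size factors 1 PVN gene was called lower in F1, against 1052 of 11874 genes. The part of these markers in the values of the members was not tested.

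Astrocyte genes gave medians of 0.15, 0.06 and 0.01 in F1, F2 and F3, and neuronal genes 0.20, -0.20 and -0.08. Microglial genes gave 0.31, -0.19 and 0.11 and ependymal genes 0.03, 0.65 and 0.06. Fibroblast genes, of which only 2 were tested in F1 and F2, gave 0.59, -0.31 and 0.06, and SGM4 stood at 1.84 in their mean after size factors, against 0.12 to 0.43 in the other F1 sGC animals. None of the genes in these lists was called in any generation as deposited (limma), and none of those in the tables was at 0 in any sample. Size factors called 1 neuronal gene lower and 1 microglial gene higher in F1, against 1052 lower and 1006 higher of 11874 genes.

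The genes whose level followed SOX10 most closely from animal to animal were sought over the 22 samples of F2 and F3, using deviations from the group mean after size factors among 10731 genes. They were MAG (r = 0.92), DNAJC7 (0.90), GPR37 (0.90), MBP (0.90) and CNP (0.90), of which MAG, MBP and CNP are myelin genes. MYRF ranked 7 (r = 0.89) and BCAS1 ranked 10 (0.86), whereas ENPP6 (0.32), NKX2-2 (0.25), CSPG4 (0.20) and GPR17 (-0.08) ranked from 1103 to 7042. For OLIG1, over 32 samples and 10541 genes, the closest were ADAMTS4 (0.93), OLIG2 (0.91), CLDN11 (0.90), SECISBP2L (0.90) and MAG (0.90). BCAS1 (0.86), MYRF (0.82), ENPP6 (0.56), GPR17 (0.45), CSPG4 (0.28) and NKX2-2 (0.20) followed, ranked 15, 34, 352, 729, 1954 and 2876. Single animals weigh on these ranks. With size factors, the F2 Veh animal SGM23 had SOX10 at 1802, against 1251 to 1357 in the other F2 Veh animals. It had OLIG1 at 5854, against 3538 to 4372, and the F1 sGC animal SGM8 had OLIG1 at 4127, against 2053 to 2933 in its group. Correlations without these animals were not computed. The correlations share libraries and the normalisation of each table, and describe these samples.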

How the data were processed

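mRNA was sequenced from PVN punches of 32 females (F1, F2 and F3). Per the study's methods, the authors aligned reads with TopHat2, counted reads per gene, removed outlying values, corrected the F3 batches, normalised each generation by residuals and tested with edgeR. The deposited values were whole numbers that the authors' normalisation had produced and rounded, so they were handled as a score rather than as read counts. The deposited values varied hardly at all along 1 direction in F1, 1 in F2 and 2 in F3, which were taken as removed by the authors' processing. These numbers were inferred from the values and are not given by the study. Such removal reduces the spread between animals and so can make p-values too small. The depth behind a value is unknown. The authors' own fold changes and p-values were in the tables and were not used.

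Values were analysed as log2(value + 1) with limma 3.58.1 in R 4.3.3, over genes whose mean reached 10, with a 95% interval and Benjamini-Hochberg adjustment over all genes at 0.05. Fits were tested on simulated data. The fit of all 6 groups pools the smaller spread of F3 and there called too many unchanged genes for the F1 minus F2 contrast. Its counts are therefore printed beside those of fits of 2 tables and of an exact permutation test, which permuted the treatment within each generation. That test is exact for no effect in either generation, not for equal effects. Alternatives were median-of-ratios, total and quantile scaling, a pseudocount of 8, no minimum, a mean of at least 50, the removed directions as covariates, F3 batch and each animal left out. Named genes were the members, up to 4 genes of lowest p per list, preset markers, and the 5 genes most alike to SOX10. PDGFRA was to be the other reference and was replaced by OLIG1. The members and lists were chosen with earlier results of these data known.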

Additional observations from a re-analysis of the deposited data

Results flagged for a closer look

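In the fit of all 6 groups, the sGC minus Veh difference of 6 members was larger in F1 than in F2, by 0.70 for CSPG4, 0.86 for BCAS1, 0.89 for ENPP6, 1.28 for MYRF, 0.81 for OLIG1 and 0.53 for OLIG2 on the log2 scale. With only F1 and F2 joined, 1 of these 6 calls remained, MYRF, and the exact permutation test kept 0 of them. With only F2 and F3 joined, the difference was lower in F2 by -0.71 for MYRF, -0.62 for OLIG1, -0.44 for OLIG2 and -0.71 for SOX10, and the exact permutation test called 0 of these. MYRF and OLIG1 were no longer called in the fit of F2 and F3 with size factors.

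One sample stood apart from its group among 52 groups of member values, where about 2.6 would by chance. CSPG4 in F3 sGC was 373 in SGM2 and 393 to 401 in the other animals, a gap of 0.722 of the range.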

How the results depend on the processing

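The lowest and highest counts with 1 animal left out were 0 and 0 members called in F1, 0 and 4 in F2, 0 and 0 in F3, 4 and 7 for F1 minus F2, 0 and 0 for F1 minus F3, and 0 and 0 for F2 minus F3. The matching counts of all genes were 15 and 474 in F1, 0 and 114 in F2, 1 and 15 in F3, 439 and 2447 for F1 minus F2, 193 and 1281 for F1 minus F3, and 0 and 18 for F2 minus F3. The extremes were reached without the F1 Veh animals SGM15 and SGM7 in F1 and without the Veh animal SGM28 in F2. Of the F1 minus F2 calls, CSPG4 was lost without SGM4, SGM8 or SGM24 and OLIG2 without SGM15, SGM8, SGM29 or SGM24.

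Genes called in F1 numbered 78 as deposited, 2058 with size factors, 1943 scaled to the sample total, 2083 after quantile normalisation and 1345 with size factors and removed directions. In F2, 0 genes were called (limma, 1395 at an unadjusted p under 0.05), 42 after quantile normalisation and 17 with a mean of at least 50, and each of these settings called 1 member, SOX10. In F3, 6 genes were called, 1 with the removed directions as covariates, 1 with size factors and removed directions, 2 in the first batch only and 3 with batch as a covariate. For F1 minus F2, 873 genes were called, 1635 with size factors, 1599 with total scaling, 1785 with quantile normalisation, 159 with only F1 and F2 joined and 516 with size factors as well, where 1 member was called in each of the latter. For F1 minus F3 the 358 genes became 2013, 1991 and 2082 under size factors, total scaling and quantile normalisation. For F2 minus F3 the 1 gene became 18, 18 and 20 under these, and 177 with only F2 and F3 joined (4 members) or 201 with size factors as well (2 members). The causes were not tested.

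Signs changed only for differences that were not called. In F1, NKX2-2 was below 0 with size factors (-0.012), total scaling (-0.007), quantile normalisation (-0.027) and size factors with removed directions (-0.012), and ran from -0.103 to 0.142 with 1 animal left out. Without SGM4 and SGM8 together, a setting that could only lower the differences, GPR17 was -0.094, OLIG1 -0.079, OLIG2 -0.061 and NKX2-2 -0.045. In F3, BCAS1 was 0.041 in the first batch only and 0.041 with batch as a covariate, and MYRF 0.001 after quantile normalisation and 0.009 in the first batch or with the covariate. With 1 animal left out, F3 values ran from -0.007 to 0.052 for CSPG4, -0.051 to 0.025 for BCAS1, -0.004 to 0.106 for ENPP6, -0.038 to 0.038 for MYRF and -0.014 to 0.063 for OLIG1. For F1 minus F3, GPR17 was -0.002 with size factors and -0.016 after quantile normalisation, and ran from -0.051 to 0.279, OLIG2 from -0.038 to 0.174 and NKX2-2 from -0.005 to 0.24 with 1 animal left out. No paired analysis was possible because the Veh and sGC groups of a generation share no animal number. The numbers SGM21 and SGM22 recur in F2 and F3, where they name animals of different generations. Depth is unknown, and 5 or 6 animals a group limit the precision.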
